A study of Mus musculus with 2 samples.

Results

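The response to low oxygen in mouse embryonic stem (ES) cells was examined through 9 genes, namely the transcription factor genes Hif1a and Epas1, the oxygen sensor genes Egln1 and Egln3, and the hypoxia target genes Vegfa, Bnip3, Ndrg1, P4ha1 and Pdk1. They were chosen by name as hypoxia-inducible factors and well-known targets, with earlier results of these data known. Every probe set that the platform annotation gives to 1 of these symbols alone was taken. These 9 genes had 21 probe sets on the array, out of 12393 genes with at least 1 such probe set. The study hybridised 2 single-channel microarrays with biotin-labelled total RNA, 1 from Id1 knockout ES cells (labelled Id1 KO or Id1-/-) and 1 from wild-type (WT) ES cells. Both cultures were grown on gelatin with serum and leukaemia inhibitory factor, the cytokine that keeps mouse ES cells self-renewing. The labels name no low oxygen or hypoxia mimetic, and give no strain, clone, passage or removed part of Id1. The comparison asks which transcripts differ between the genotypes under self-renewing conditions. Differences are knockout minus wild type on the log2 scale after each array's median was subtracted.

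Hypoxia-inducible factor (HIF) is a pair of an oxygen-labile alpha subunit, HIF1A or EPAS1 (also called HIF-2 alpha), and the stable beta subunit ARNT. With oxygen present, the EGLN dioxygenases hydroxylate prolines of the alpha subunit, the VHL ubiquitin ligase binds it and the proteasome removes it. When oxygen is scarce the alpha subunit persists, pairs with ARNT and binds the hypoxia response element of target genes for blood vessel growth, glycolysis, mitophagy and collagen processing. The alpha subunits are therefore regulated largely as proteins, which a microarray does not measure, whereas several EGLN genes are themselves HIF targets.

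There was 1 array per genotype, so no replicate error, no test and no p-value exist for any difference, and culture, clone and array cannot be told apart from genotype. The technical spread that could be measured was the SD among the log2 differences of a gene's own probe sets, with a median of 0.22 over 2566 genes with at least 2 that passed. A probe set passed when its brighter value reached the median of its array, 155.0 for the knockout and 152.5 for the wild type, and values below a floor of 48.4 and 47.6 were raised to it. Of the genes, 7369 passed by their brightest probe set. The Id1 probe set read 461 on the knockout array against 1045, or 2.30-fold lower, and the knockout reading still lay above its array median. All 9 ES cell markers passed, with readings between 2195 and 22751 for the knockout and between 1822 and 27816 for the control, and Nanog was the marker past 2-fold (2195 against 5423). Of 8 endothelial markers 3 passed, of 8 fibroblast markers 2, of 8 primitive endoderm markers 2 and of 7 trophoblast markers 3, and none of these was past 2-fold.

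All 9 hypoxia genes passed the filter by their brightest probe set, and 16 of their 21 probe sets passed. Epas1 and Vegfa were at least 2-fold lower in the knockout, none of the 9 was 2-fold higher and 7 lay within 2-fold. Over all 7369 genes, 3.92% were at least 2-fold lower and 3.92% at least 2-fold higher. The 9 genes were chosen with earlier results of these data known, so their counts beside such shares are a description only. With a limit of 1.5-fold, Ndrg1 joined Epas1 and Vegfa, giving 3 lower and 0 higher, against 11.5% and 10.5% of all genes. By brightest probe set 6 of the 9 genes were below 0 and 3 above, with a median of -0.36. Of all genes 51.2% were below 0, with a median of -0.01. The signs of Hif1a, Egln1 and P4ha1 depended on the probe set or the setting, as given below. At the level of probe sets, 3 of the 16 that passed were 2-fold lower (the Epas1 probe set and both for Vegfa) and 0 were higher, where 3.88% and 4.2% of all 11205 passing probe sets were. Epas1, Vegfa and Ndrg1 passed through the wild-type array alone, so they had to be lower in the knockout to some degree. Of 483 genes that passed that way, 28.2% were 2-fold lower and the median was -0.72. The other 6 passed on both arrays, with a median of -0.16 against -0.01 for the 6420 genes that did so.

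**Figure D1:**
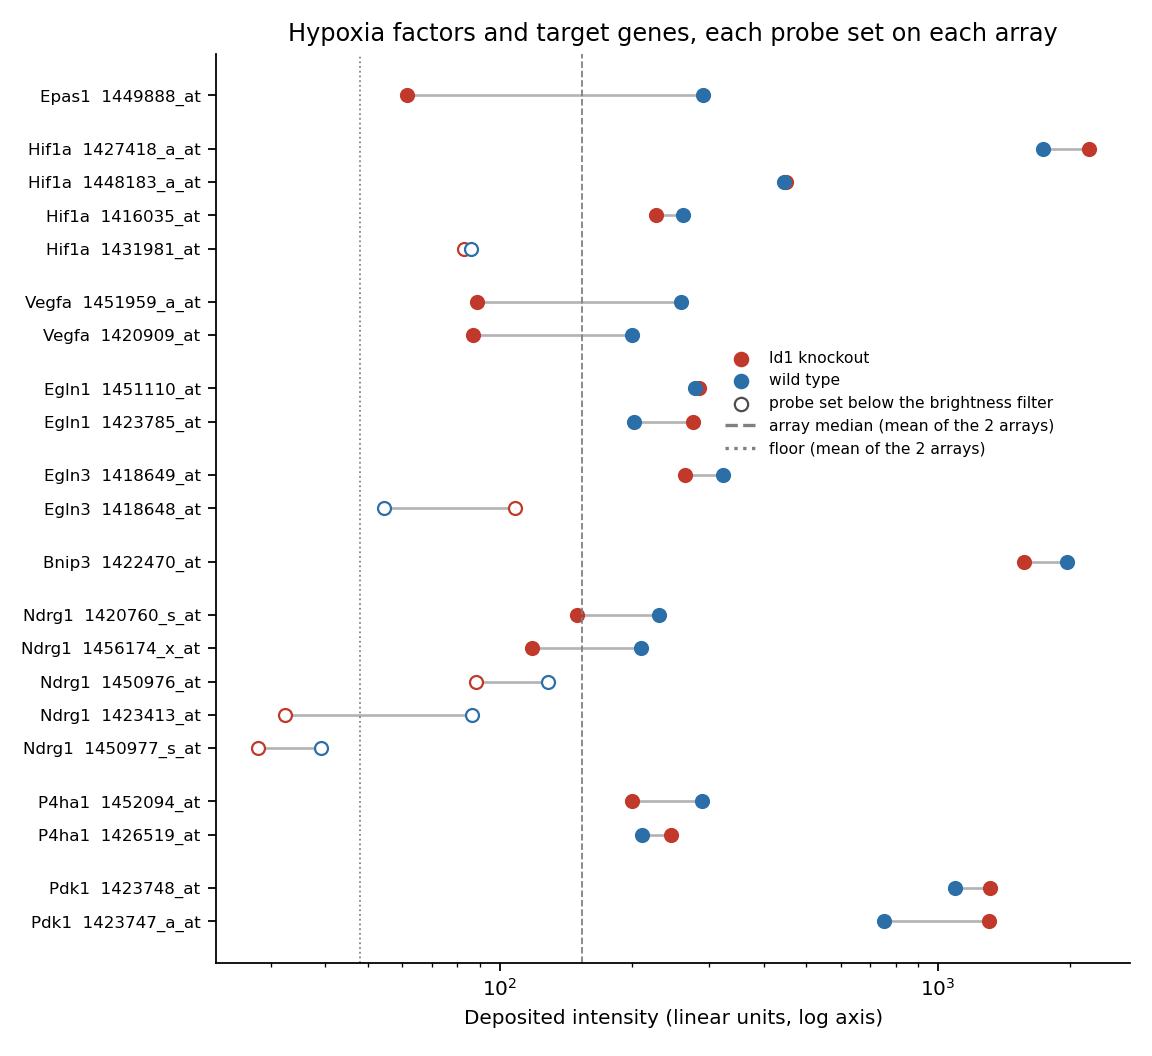
Deposited intensity (linear units on a log axis) of each of the 21 probe sets, red for the Id1 knockout array and blue for the wild-type array, with open circles for the 5 probe sets below the brightness filter. The gap is widest for the Epas1 probe set (61.5 against 290.8), both Vegfa probe sets are lower in the knockout, and Hif1a, Egln3 and P4ha1 each have probe sets higher and probe sets lower in the knockout.

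The 2 alpha subunit genes gave unlike readings. Epas1, which encodes the alpha subunit best known from endothelium, kidney and iron metabolism, read 61.5 in knockout cells against 290.8 in wild-type cells on its single probe set. That is a 4.81-fold lower signal (log2 difference -2.27), rank 19 of 7369 from the lowest. Among the 483 genes that passed through the wild-type array alone, Epas1 was rank 15 from the lowest. The wild-type reading lay above its array median, at 1.91 times it, and the knockout reading at 0.397 times it, not far above the floor. Among the 1474 genes in the dimmest 20% of those that passed, where 8.55% were 2-fold lower and the spread (a robust SD) was 0.70, Epas1 was rank 14 from the lowest. In the brighter classes of 20% each, that spread narrowed to 0.46, 0.40, 0.35 and 0.29.

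Hif1a, which encodes the broadly expressed alpha subunit, had 4 probe sets. The brightest read 2206 for the knockout and 1730 for the wild type (log2 difference 0.33, or 1.25-fold higher). The second read 450.8 and 445.0 (-0.0048), and the third 227.2 and 262.5 (-0.23). The fourth, at 82.8 and 86.2, did not pass. Its 3 passing probe sets thus lay on both sides of 0 with an SD of 0.28 between them, and their mean was 0.03.

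The remaining subunit genes lay within 2-fold. Hif3a, whose product includes forms that inhibit the other alpha subunits, read 465.8 against 348.3 (0.40) and 244.5 against 175.7 (0.45) on its passing probe sets. Arnt, the common partner, read 272.3 against 306.5 (-0.19) and 109.3 against 162.5 (-0.60). The second Arnt probe set passed through the wild-type array alone, so it had to be lower. Arnt2, the partner known mainly from neurons, was at the floor on both arrays. Of the 4 subunit genes that passed, Epas1 alone was past 2-fold.

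Epas1 transcript is abundant in endothelium, and the endothelial markers were also compared. Their summed brightest readings were 890.7 on the knockout array and 1078 on the other. Cdh5 (44.8 against 83.7), Tie1 (2.62 against 3.32) and Emcn (9.15 against 56.7) did not pass on either array. The 3 that passed were Esam at 123.2 against 184.9 (-0.61), Egfl7 at 319.4 against 411.5 (-0.39) and Tek at 170.0 against 129.2 (0.37). Their median was -0.39. Esam passed through the wild-type array alone, so it had to be lower in the knockout. Tek passed through the knockout array alone, so it had to be higher there. Only Egfl7 reached the median on both arrays. Cldn5 did not pass on either array (106.7 against 105.1). Flt1 did not pass by its brightest probe set (114.8 against 103.7), while another of its probe sets passed at 179.6 against 64.9 (1.44 higher in the knockout on the log2 scale). That probe set passed through the knockout array alone, so it had to be higher there. The part of other cells in the Epas1 difference was not tested, and in RNA from a whole culture fewer cells with a transcript and less transcript per cell cannot be told apart.

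**Figure D2:**
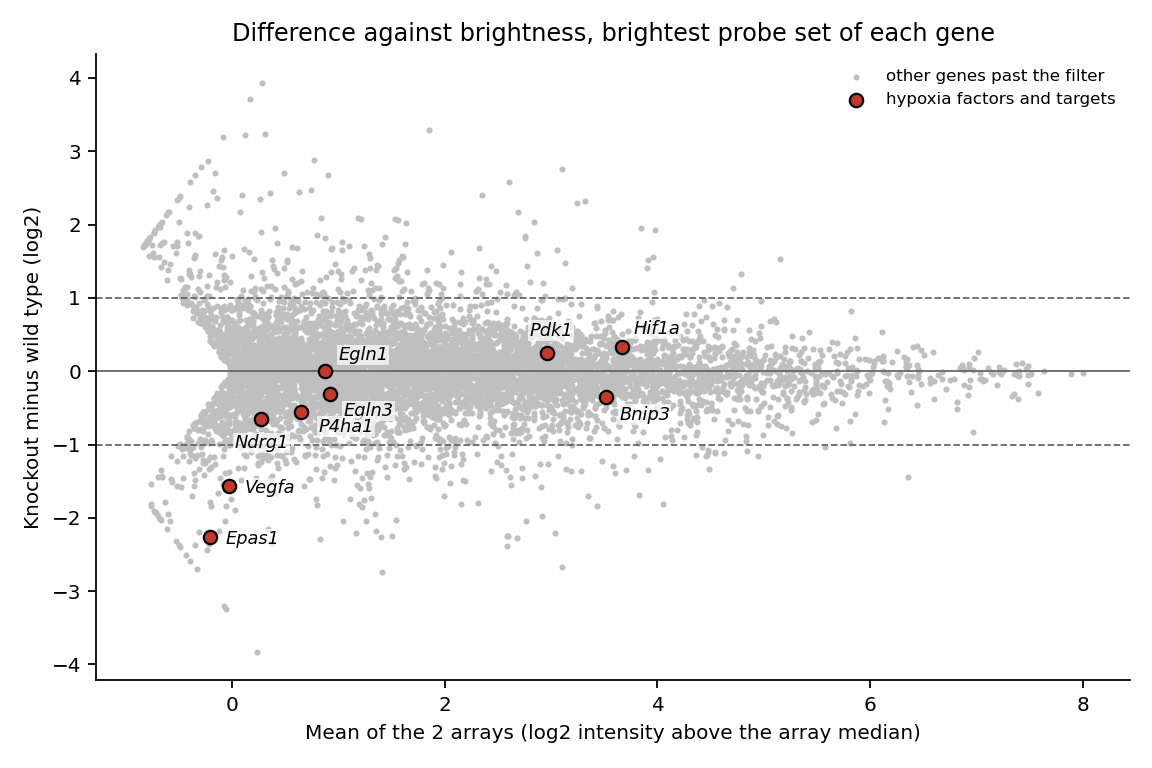
Log2 difference, knockout minus wild type, against the mean log2 intensity of the 2 arrays above the array median, for the 7369 genes past the filter (grey) and the 9 hypoxia genes (red). Dashed lines mark 2-fold. Epas1 (-2.27) and Vegfa (-1.57) lie below the lower line at the dim end where the cloud of genes is wide, and Hif1a, Bnip3 and Pdk1 lie near 0 among brighter genes.

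The oxygen sensors differed little. Egln1, the main HIF prolyl hydroxylase gene, read 284.2 for the knockout against 279.3 on its brighter probe set, a log2 difference of 0.0013. Its other probe set read 276.6 and 202.0 (0.43), so the pair had an SD of 0.30. The sign of the brighter one turned to -0.04 with quantile normalization and to -0.02 with intensity-dependent centring. Egln3, a hydroxylase gene that HIF strongly induces in many cells, read 264.1 and 322.7 on its passing probe set (-0.31). A dimmer Egln3 probe set that did not pass read 108.3 and 54.5 (0.97), in the opposite direction. Egln2, the third of the family, read 661.0 and 839.1 (-0.37), and Vhl, the substrate receptor of the ubiquitin ligase, 206.3 and 239.5 (-0.24). Of the 9 genes that passed in the list of hydroxylases and the VHL ligase, 0 were past 2-fold in either direction, 7 were below 0 and the median was -0.24. Hif1an, the asparaginyl hydroxylase gene, was not analysed here. Among coactivators and inhibitors of HIF, 4 genes passed and 0 were past 2-fold by brightest probe set, with a median of -0.18. Ncoa1 was lower at -0.93, and its other passing probe set was past 2-fold (134.7 against 304.9, -1.20). That probe set passed through the wild-type array alone, so it had to be lower. Cited2 was higher on both its probe sets (0.62 and 0.75).

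The hypoxia response element has the core ACGTG or GCGTG, and both were searched on both strands of the 250 bases before each gene start in RefSeq (GRCm38.p6), where CACGTG counts on both strands as 2 overlapping matches. The sequences of 4 target genes are shown to be read beside their values below, since they run from no core to 5. Each is given 5' to 3' on the strand of its gene, with cores of either strand in capitals.
Vegfa, chr17:46032378-46032627 on the minus strand: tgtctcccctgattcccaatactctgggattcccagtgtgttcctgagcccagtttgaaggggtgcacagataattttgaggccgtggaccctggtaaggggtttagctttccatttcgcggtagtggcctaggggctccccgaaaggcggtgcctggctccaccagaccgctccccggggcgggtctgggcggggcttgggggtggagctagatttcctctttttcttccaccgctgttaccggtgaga
Pdk1, chr2:71872974-71873223 on the plus strand: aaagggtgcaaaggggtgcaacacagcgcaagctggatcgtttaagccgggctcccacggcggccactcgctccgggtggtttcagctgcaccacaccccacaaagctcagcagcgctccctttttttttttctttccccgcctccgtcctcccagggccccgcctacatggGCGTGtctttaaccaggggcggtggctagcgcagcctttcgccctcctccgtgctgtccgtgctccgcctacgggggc
P4ha1, chr10:59323046-59323295 on the plus strand: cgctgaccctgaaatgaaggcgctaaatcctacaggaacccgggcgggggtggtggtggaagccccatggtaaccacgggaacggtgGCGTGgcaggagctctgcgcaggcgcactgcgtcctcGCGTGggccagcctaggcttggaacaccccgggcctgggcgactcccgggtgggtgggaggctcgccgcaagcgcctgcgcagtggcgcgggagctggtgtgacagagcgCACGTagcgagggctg
Bnip3, chr7:138909507-138909756 on the minus strand: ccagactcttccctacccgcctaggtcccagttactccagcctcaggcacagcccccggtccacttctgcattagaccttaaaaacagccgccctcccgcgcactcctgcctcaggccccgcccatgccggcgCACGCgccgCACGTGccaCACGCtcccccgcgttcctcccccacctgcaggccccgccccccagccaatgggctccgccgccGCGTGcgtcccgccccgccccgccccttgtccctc

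The Vegfa stretch held no core, although a second RefSeq start inside that gene had 2 in its window. Bases further upstream were not searched for any gene, so a window without a core does not mean a promoter without one. The Pdk1 stretch held 1, a GCGTG starting 78 bases before the gene start, and the window of a second listed Pdk1 start held 0. P4ha1 held 3, at 163, 126 and 16 bases before the start, and Bnip3 held 5, of which 4 lay between 117 and 95 bases before it around 1 CACGTG. Egln1 held 2, Hif1a 3 and Egln3 1. A match was thus found for 7 of the 7 genes with an entry (Epas1 and Ndrg1 are named only), counting all listed starts, against 64.0% of the 6055 passing genes with an entry. Among all 32851 windows of this length, 38.6% held at least 1 core and 2.58% held 4 or more. A match describes letters and is not a binding site, and these 7 genes included differences in both directions.

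Vegfa, the gene of the main growth factor for blood vessels, was lower on both probe sets. It read 88.7 for the knockout against 258.7 for the wild type on the brighter one, 2.96-fold lower (log2 difference -1.57). The other read 87.0 and 199.9, 2.34-fold lower (-1.22). The readings of the knockout were thus below the array median on both, and those of the wild type above it. The SD between the pair was 0.24, near the median of 0.22 for all genes. Vegfa was rank 79 of 7369 from the lowest, and rank 43 among the 1474 genes of the dimmest 20%. Among the 483 genes that passed through the wild-type array alone, Vegfa was rank 47 from the lowest.

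Members of the VEGF family went in both directions. Vegfb, a related ligand gene not known as a strong hypoxia target, read 369.0 and 171.2 on its single probe set, 2.12-fold higher in the knockout. The receptor gene Flt4 read 201.7 and 255.8 (-0.37) and the coreceptor gene Nrp2 152.1 and 183.1 (-0.29). Nrp2 passed through the wild-type array alone, so it had to be lower in the knockout. The other 6 family genes, namely Vegfc, Vegfd, Pgf, Kdr, Flt1 and Nrp1, did not pass by their brightest probe set. For the receptor gene Flt1 the 3 probe sets gave unlike readings. The one that passed, dimmer on average over both arrays, was past 2-fold higher in the knockout (1.44). It passed through the knockout array alone, so it had to be higher there. The brightest differed by 0.12 and the last lay below the floor on both arrays. Of the 4 that passed 1 was 2-fold lower and 1 higher.

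Ndrg1, a differentiation and stress response gene induced strongly by hypoxia, had 5 probe sets, all with the lower reading in the knockout. Those that passed read 150.0 against 231.3 (-0.65) and 118.3 against 210.2 (-0.85), or 1.57-fold and 1.81-fold lower. The dim ones read 88.1 against 128.8, 32.4 against 86.5 and 28.0 against 39.2, the last 2 with knockout readings below the floor. Both probe sets that passed have names ending in _s_at or _x_at, which the manufacturer gives to sets that can share sequence with other transcripts. The family was mixed. Ndrg3 was lower on both its probe sets, at 144.3 against 240.8 (-0.76) and 47.3 against 166.2 (-1.80, a lower bound in size, since the knockout reading lay below the floor). Both Ndrg3 probe sets passed through the wild-type array alone, so they had to be lower. Ndrg2 read 238.1 against 190.7 (0.30) and Ndrg4 444.8 against 440.6 (-0.01). By brightest probe set, 0 of the 4 NDRG genes were past 2-fold.

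Bnip3, whose product sits on the outer mitochondrial membrane and marks mitochondria for autophagy, read 1567 for the knockout against 1972 on its single probe set. This was 1.28-fold lower (-0.36). The robust SD among the brightest 20% of genes, which holds Bnip3, was 0.29, so the difference was little larger than the spread of genes of that brightness. Its namesakes went the other way, since Bnip2 read 953.2 and 613.1 (0.61) and Bnip1 327.7 and 259.3 (0.31) on their brightest probe sets. The other 2 passing Bnip2 probe sets gave 0.72 and 1.10. In the list of mitophagy receptors, Pink1, the kinase gene that labels damaged mitochondria, was past 2-fold at 154.2 against 420.5 (2.77-fold lower, 1 probe set). Pink1 passed through the wild-type array alone, so it had to be lower in the knockout to some degree. The other 6 of 7 passing genes were within 2-fold. The paralog Bnip3l was not analysed here.

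P4ha1, the catalytic alpha subunit gene of collagen prolyl 4-hydroxylase, had probe sets that disagreed. The brighter one by mean log2 value read 200.6 for the knockout against 289.0 (-0.55), and the other 246.2 and 211.3 (0.20). The SD between them was 0.53, larger than the 0.22 of the typical gene, and their mean was -0.18. No direction can be given for this gene. P4hb, the shared beta subunit and protein disulfide isomerase gene, read 5026 and 3969 (0.32). Plod1, Plod2 and Plod3, the lysyl hydroxylase genes, had differences of 0.32, 0.18 and 0.31, and P4ha2 did not pass (154.5 against 113.9). Of 7 collagen hydroxylation genes that passed, 0 were past 2-fold and the median was 0.18. P4ha1, Crtap (-0.91) and P3h1 (-0.36) were the 3 below 0. Of these, P3h1 passed through the wild-type array alone, so it had to be lower.

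Pdk1, the gene of the kinase that shuts pyruvate dehydrogenase and so diverts pyruvate from mitochondria, had higher readings in the knockout on both probe sets. They were 1316 against 1093 (0.24) and 1309 against 753.7 (0.77), or 1.18-fold and 1.71-fold higher. Of the 9 genes, Pdk1 and Egln1 were those with no probe set below 0 as reported, Egln1 by only 0.0013 on one of them. Pdk3, an isoform gene on the X chromosome, read 641.9 against 940.5 (-0.57), and Pdk2 (76.8 against 121.0) and Pdk4 (48.6 against 70.2) did not pass. Pdha1, the X-linked gene of the catalytic subunit that PDK1 phosphorylates, read 3179 against 6058 (-0.95) and 2388 against 4767 (-1.02). The 238 X-linked genes that passed had a median of -0.55, against -0.0017 for all others, and their part in the Pdk3 and Pdha1 values was not tested. None of the 9 hypoxia genes is X-linked. The autosomal complex genes Pdhb (-0.13), Dlat (0.08) and Dld (0.23) lay closer to 0.

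**Figure D3:**
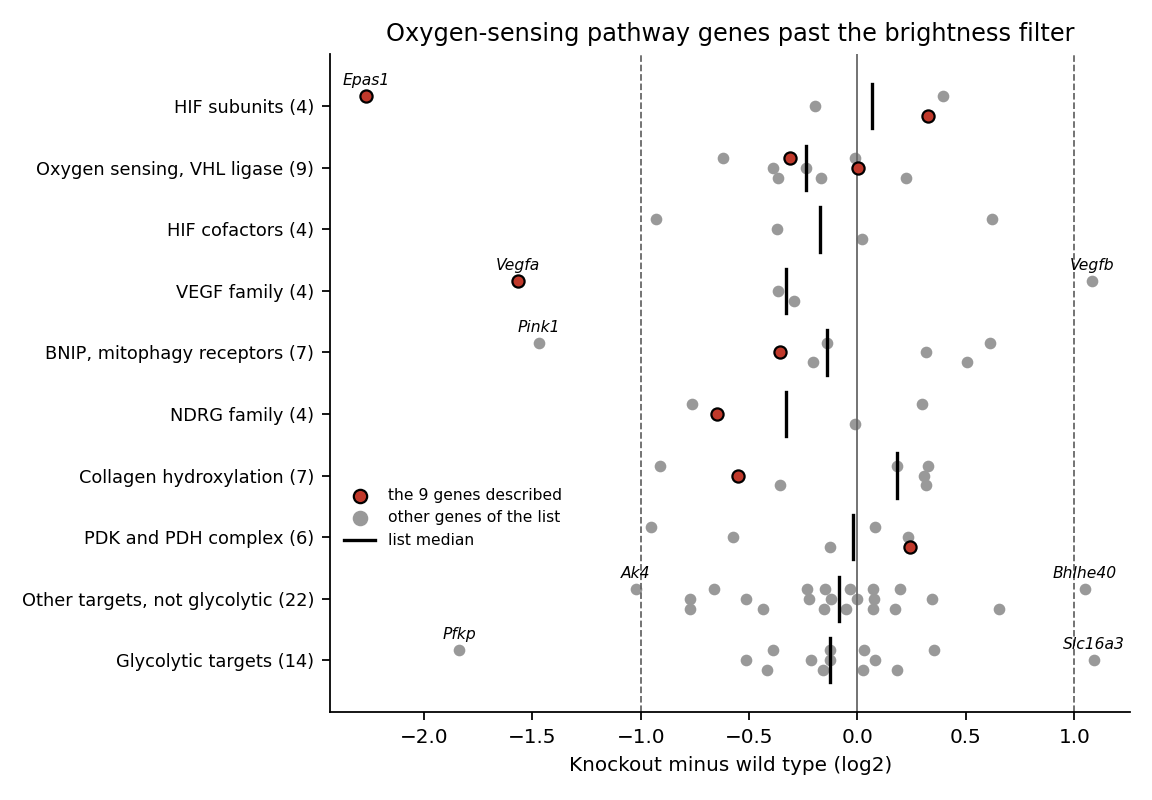
Log2 difference, knockout minus wild type, of the genes past the filter in 10 lists of the oxygen-sensing pathway (number of genes in brackets), with the 9 hypoxia genes in red, the list median as a black bar and 2-fold as dashed lines. Most genes lie between the lines, and the labelled ones are those past 2-fold.

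The wider set of HIF targets was read beside these 9 genes. Of 56 such genes on the array, 43 passed, including the 7 described here. In the knockout 3 were 2-fold lower (6.98%) and 2 were 2-fold higher (4.65%), against 3.92% each way in all genes. The other 38 lay within 2-fold. Vegfa, already described, was among the 3 lower and passed through the wild-type array alone. Without the 7 genes described here, the 22 passing targets outside glycolysis had 1 lower and 1 higher. The 14 glycolytic targets that passed also had 1 lower and 1 higher. The median of the 43 was -0.13 and 27 of them were below 0. The 42 without X-linkage had a median of -0.14. Outside glycolysis, Ak4, a mitochondrial adenylate kinase gene, read 614.5 against 1228 (2.03-fold lower), with its other 2 passing probe sets at -0.76 and -1.02. It fell short of 2-fold without centring or when centred on the brightest 25% of genes. Bhlhe40, a transcriptional repressor gene, read 352.0 against 167.5 (2.07-fold higher). Of 22 such genes 20 were within 2-fold, among them Ddit4 (0.35), Ero1a (0.07), Higd1a (-0.16), Hmox1 (-0.43) and Kdm3a (-0.77). The other passing Ero1a probe sets gave -0.72 and -0.11. Car9 and Adm, classical hypoxia markers, did not pass on either array (55.4 against 18.9 and 43.3 against 7.13).

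Of the 14 glycolytic targets that passed, the phosphofructokinase gene Pfkp was lower (886.9 against 3119) and the lactate exporter gene Slc16a3 higher (1113 against 514.0, 2.13-fold). Slc2a1, Hk2, Pgk1 and Ldha, which HIF induces in most cells, had differences of -0.16, -0.42, -0.13 and -0.22, all within 2-fold. The list median was -0.13, and 8 of the 14 were below 0. Pfkl (0.35) and Pkm (0.18) were among those above 0. The other passing Pgk1 probe sets gave -0.23 and -0.70. Of genes for which EPAS1 is known as a main regulator, 7 passed and 0 were past 2-fold, with a median of 0.09. By brightest probe set they ran from Slc11a2 (-0.74), an iron transporter gene, to Slc40a1 (0.67), the iron exporter gene. Ccnd1 (0.09), Tgfa (-0.20) and Pou5f1 (-0.36) lay between them. Another passing probe set of Slc11a2 (0.35) and another of Tgfa (0.66) went the other way. That Tgfa probe set, both Slc40a1 probe sets and the single probe set of Tek (0.37) passed through the knockout array alone. They had to be higher there.

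**Figure D4:**
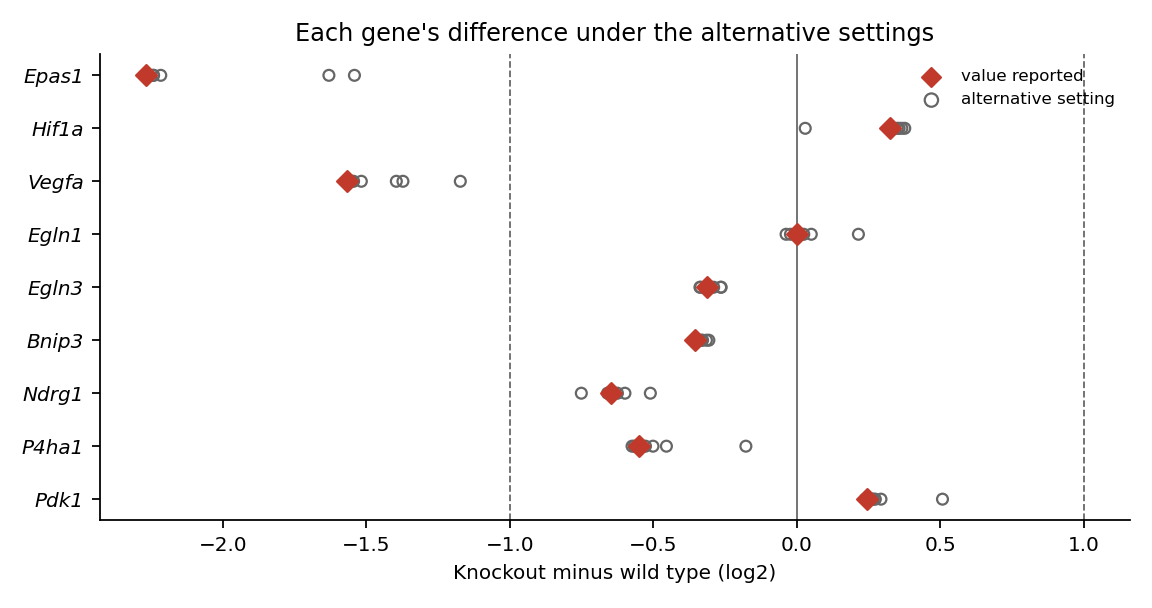
Log2 difference, knockout minus wild type, of each of the 9 genes as reported (red diamond) and under each alternative setting that gave a value (open circles), with 2-fold as dashed lines. Epas1 (-2.27 to -1.54) and Vegfa (-1.57 to -1.17) lie past 2-fold in every one of the 12 alternatives that gave them a value, and none of the other 7 genes reaches it in any.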

How the data were processed

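The authors deposited 1 linear intensity per probe set and array; scanner files, detection calls, software and the summarisation method stand in none of the sources used here. The array medians differed by 0.02 (log2), so the arrays share a scale, but an intensity-dependent difference between them would persist, and dim readings are noisy. Per the labels' protocols, 1 ug total RNA was purified on RNeasy columns and labelled with a Megascript kit.

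Of 22690 probe sets, 64 controls were left out. Symbols came from the platform annotation of 2016 (20380 probe sets with 1 symbol, 691 with several, 1555 with none), and no symbol needed updating in RefSeq. Intensities were converted to log2 and centred on the array median, with a floor at the 25th percentile of both arrays' pooled centred values. The probe set of highest mean log2 value before the floor stood for a gene, which passed where its brighter value reached the median. The named genes are the 9 members with all probe sets, other HIF subunits, sensors and direct paralogs, and list genes past 2-fold up to the 4 largest. Other list genes were named after their values were seen. The members and lists were chosen with earlier results of these data known. Python 3.11.15 and pandas 2.3.3 were used, and the steps were tested on simulated data. Promoters are RefSeq's. The number of arrays limits the precision.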

Additional observations from a re-analysis of the deposited data

How the results depend on the processing

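Epas1 and Vegfa were past 2-fold, and no other of the 9 genes, under each scaling (no centring, quantile normalization, lowess centring on intensity with a fraction of 0.3, and, added after seeing the data, centring on the brightest 25% of genes), under floors at the 10th and 40th percentile or none, with a pseudocount of 50, with no or a 25th percentile filter, and with other choices of probe set. Requiring both arrays to reach the median left 6 of the 9 genes and 0 past 2-fold, since that filter removes Epas1, Vegfa and Ndrg1 by construction, and a 3-fold limit left 1 gene, Epas1. The median of the 9 genes lay between -0.36 and -0.31 under the settings that kept all 9, and that of the 6 genes left by the filter on both arrays was -0.16. Epas1 had its smallest differences with a floor at the 40th percentile (-1.54) and the pseudocount (-1.63), both of which shrink dim values, and Vegfa with the pseudocount (-1.17). Averaging passing probe sets gave Hif1a 0.03, P4ha1 -0.18 and Pdk1 0.51. No gene past 2-fold changed sign. Hypoxia target genes past 2-fold, 5 as reported, numbered 3 with the pseudocount, 10 at 1.5-fold and 1 at 3-fold. The pseudocount shrinks all differences, those of dim genes most, and the others move the limit itself. Some of the 5 lay close to the limit, such as Ak4 (-1.02), which is not dim. With 1 array per genotype no array could be left out, and differences of dim probe sets are the least certain.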

Other observations

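Genes next to Epas1 and Vegfa on chromosome 17 were read for a shared shift. The 10 passing genes nearest to Epas1 (5 on each side in RefSeq order) had a median log2 difference of -0.06. Of these, the sterol transporter gene Abcg8 was just past 2-fold in the downward direction. The 10 nearest to Vegfa had a median of -0.03, with the nucleoside transporter gene Slc29a1 lower (-1.36) and the membrane protein gene Tmem63b higher (1.35). These neighbours were singled out after their values were seen.

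Passing genes with an ACGTG or GCGTG core in the 250 bases before a listed start numbered 3876 and had a median difference of -0.01, with 3.51% at least 2-fold lower and 3.59% at least 2-fold higher. The 2179 without one had a median of -0.04, with 4.5% lower and 4.27% higher. The 934 genes with 3 or more matches, a group that holds Bnip3, P4ha1 and Hif1a, had a median of -0.0024.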
